A study of Mus musculus with 4 samples.

Results

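Non-classical monocytes of the mouse lung were chosen by measured values, namely the UMIs of marker genes in single-cell RNA libraries. A barcode was taken when it held at least 300 genes and at most 10% mitochondrial UMIs (unique molecular identifiers, each a counted transcript), when at least 3 of the 7 genes Treml4, Ace, Adgre4, Spn, Cd300e, Eno3 and Itgal were detected, and when Lyz2 or Csf1r, genes of myeloid cells, had a UMI. Barcodes with over 3 UMIs of the complement genes C1qa, C1qb and C1qc, with any Cdh5 (vessel lining) or Cd3e (T cells), or with over 1 UMI of Col1a2 (fibroblasts) were left out. The gate held 284 of 15793 filtered barcodes, or 1.80% (95% exact binomial interval 1.60 to 2.02, which covers counting error only). Further gates served for comparison. Classical monocytes (120 barcodes) had at least 3 of 8 genes, among them Ly6c2, Ccr2, Chil3, F13a1, Vcan, Fn1 and Ms4a4c, and fewer than 3 of the 7 genes above, and C1q-high macrophages (2544 barcodes) had at least 10 UMIs of the C1q genes. Of the 284 cells 67 also had at least 3 of the classical genes.

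WT mice and LAIR1KO mice gave the lungs, either normal or with tumors of B16/F10, a mouse melanoma line, with 1 droplet library per group and 3 animals per library told apart by hashtag antibodies. Strain, age, sex and the route of the tumor cells are not stated in the labels, nor is how the knockout was made. Group and library cannot be told apart. Values for the libraries follow in 1 order: first WT normal, second WT tumor-bearing, then LAIR1KO normal and last LAIR1KO tumor-bearing. They held 61, 96, 42 and 85 of the 284 cells. Their medians were 7892, 6302, 6544 and 5943 UMIs per cell. Each library held 25216301 to 28034709 gene UMIs. Pairs of libraries shared 3 to 7 barcodes, and none of those was a gated cell. WT normal cells carried Ddx3y of the Y chromosome (127 UMIs) and 0 UMIs of Xist, whereas the other libraries carried 195 to 592 UMIs of Xist and at most 1 of Ddx3y, so both contrasts with WT normal lung also set males against females.

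Non-classical monocytes, the Ly6C-low subset of the mouse, patrol the inner wall of small vessels and clear debris. They arise from classical monocytes under the transcription factor NR4A1, live longer, and carry the Fc receptor FCGR4. In the lung they lie in the capillary bed, where they have been studied for the uptake of tumor material. LAIR1 is an inhibitory receptor of leukocytes that binds collagen and signals through the phosphatases SHP-1 and SHP-2.

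The 7 counted genes chose the cells, so their levels are a description. Ace, the angiotensin-converting enzyme, stood at 507, 506, 576 and 464 CPM (UMIs per 1000000 UMIs of the gated cells) in library order. Treml4, a receptor that binds dying cells, stood at 205, 158, 147 and 164 CPM in that order, and Adgre4, an adhesion receptor of the EMR family, at 308, 243, 285 and 238 CPM. Spn, the leukosialin CD43, stood at 247, 274, 211 and 214 CPM. Cd300e, an activating receptor of the CD300 family, stood at 201, 179, 131 and 128 CPM. Eno3, an enolase of glycolysis, stood at 110, 145, 104 and 126 CPM, and Itgal, the alpha chain of the integrin LFA-1, at 1214, 1271, 1232 and 1154 CPM. The 4 libraries were thus close to one another, with Treml4, Adgre4 and Cd300e highest in WT normal lung. Itgal had a UMI in each of the 284 cells, while it also stood at 433 CPM in the classical gate, where Ace was at 12.3 CPM and Cd300e at 0 UMIs.

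Of the 284 cells 68 had exactly 3 of the 7 genes, 38 had 4, 51 had 5, 76 had 6 and 51 had all 7. Cells just inside the limit differed from those far inside. Nr4a1, which the gate did not use, stood at 750 CPM in 391 cells with 2 of the genes (just outside), at 970 in cells with 3 and at 1656 in cells with 7. Pou2f2, a POU transcription factor, stood at 48.1, 136 and 705 CPM in the same order, and Apoc2, an apolipoprotein, at 25.0, 68.0 and 392. Chil3, a lectin of classical monocytes and alveolar macrophages, went the other way, from 2424 and 3198 CPM to 120.

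Most gated barcodes also held transcripts of neutrophils. The 5 genes Retnlg, Csf3r, Cxcr2, Mmp9 and Ly6g, known from those cells, had over 2 UMIs in 172 of the 284 cells, or 60.6% (54.6 to 66.3), against 32.5% of the classical gate, 30.1% of C1q-high macrophages and 4.35% of cells with at least 2 UMIs of the endothelial gene Cdh5. The medians of these gates were 6571, 6010, 5377 and 7506 UMIs per cell in the same order, so the first 3 shares fell with depth. The part of depth in them was not tested. The count per gated cell had 2 heaps: 71 cells had 0 such UMIs and 145 had 10 or more, up to 207, with 27 between 3 and 9. Hashtags followed the same line. Of the 171 cells with neutrophil transcripts and no alveolar markers, 135 (78.9%, 72.1 to 84.8) carried the hashtags of 2 or more animals, against 20 of the 92 cells with neither (21.7%, 13.8 to 31.6). The first set had a median of 7714 UMIs and the second 3919. Over all gated cells 54.9% were hashtag doublets, against 18.1% of the other barcodes. Scrublet, which calls doublets from transcripts alone, marked 2 of the 284.

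**Figure D1:**
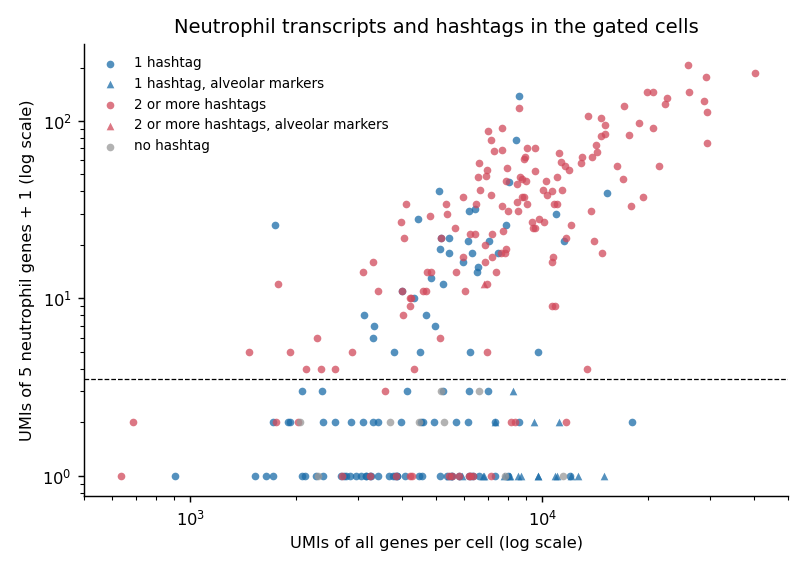
UMIs of 5 neutrophil genes plus 1 (vertical, log scale) against UMIs of all genes (horizontal, log scale) in the 284 gated cells, colored by hashtag call; triangles are cells with 2 or more alveolar macrophage markers and the dashed line parts 2 from 3 UMIs. The 172 cells above the line are mostly red, that is, marked by 2 or more hashtags, and reach higher totals.

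A further 21 cells (7.39%) had at least 2 of 6 markers of alveolar macrophages (Marco, Ear1, Fabp1, Krt79, Siglecf and Cidec), the phagocytes of the air spaces. Of these 18 had exactly 3 of the counted genes, 20 carried a single hashtag, and their 5 markers of non-classical monocytes summed to 2.68 UMIs per 10000. That sum was 22.6 in the 92 cells with neither set of transcripts, 12.3 in the cells with neutrophil transcripts and 0.727 in the classical gate. The data go against the label for these 21 cells, and Pou2f2 was at 26.3 and Cx3cr1 at 5.26 CPM in them, against 849 and 269 CPM in the 92. The libraries held 0, 8, 3 and 10 of them. The make-up of the gate therefore differed between libraries. Cells with neutrophil transcripts were 82.0, 45.8, 64.3 and 58.8% of it in library order. Results below are given for all gated cells and, where they can be had, for the 92 cells with neither. These have at most 2 UMIs of the 5 neutrophil genes but are not free of such transcripts. The list of 7 neutrophil markers, which adds S100a8 and S100a9, held 487 UMIs in them, 291 of those in 1 cell.

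**Figure D2:**
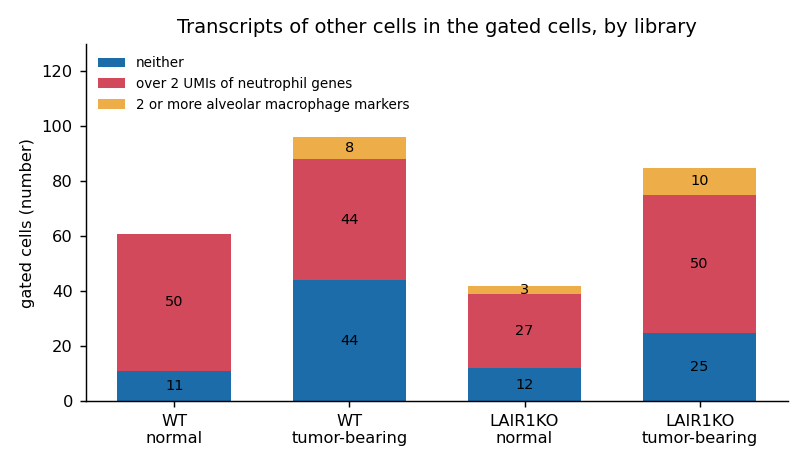
Number of gated cells per library (bars) by the transcripts of other cells they held. The blue part, with neither neutrophil nor alveolar transcripts, is 11, 44, 12 and 25 cells from left to right.

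Markers of lymphocytes, dendritic cells, vessels, fibroblasts and melanoma had few UMIs, unlike those of macrophages and of the airway and alveolar lining. The gate itself limited Cd3e, Cdh5 and Col1a2, so low sums for T cells, vessels and fibroblasts were partly set by it. The 5 melanoma markers had 4 UMIs in all gated cells, with Mlana, Tyrp1 and Tyr at 0, and the 6 T cell markers had 9, with Trac, Cd4 and Cd8a at 0. The 6 B cell markers summed to 0.573 UMIs per 10000 (0.0670 to 0.896 between libraries, all 6 detected), the 6 natural killer cell markers to 0.257 (0 to 1.14) and the 7 dendritic cell markers to 0.469 (0.0335 to 1.16, Xcr1 at 0). The endothelial list summed to 0.794 and the fibroblast list to 1.59 per 10000. At least 2 of their markers were found in 9.86% and 12.3% of the gated cells. The 8 macrophage markers, among them Apoe, Mrc1 and the C1q genes that the gate capped, summed to 17.6 per 10000 (14.1 to 21.0 between libraries), and 54.9% of the gated cells had at least 2 of them. In the 92 cells that sum was 29.2 and in the classical gate 14.8. The 8 classical monocyte markers summed to 18.3 per 10000 (10.5 to 23.4), against 101 in the 21 cells with alveolar markers and 47.7 in the classical gate. The 5 epithelial markers (Sftpc, Sftpb, Sftpa1, Scgb1a1 and Epcam) summed to 18.4 per 10000, from 4.22 to 48.1 between libraries, and 1751 of their 4071 UMIs lay in 1 cell of WT normal lung. The 92 cells with neither neutrophil nor alveolar transcripts held 2985 of those UMIs, that 1 cell included. At least 2 of the epithelial markers were found in 48.9% of the 92, against 67.8% of cells with neutrophil transcripts and 76.2% of those with alveolar markers. The part of these transcripts in the results was not tested.

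The gated cells were compared with classical monocytes to ask what sets the patrolling subset apart from its precursor. Gngt2, a G protein gamma subunit, Grk3, a kinase that desensitizes G protein-coupled receptors, Hfe, the regulator of iron uptake, Hes1, a target of Notch signalling, and the scavenger receptor gene Cd36 were higher in all 4 libraries, as were Fcgr4, Pou2f2 and Apoc2. The rule that named genes by p-value kept only those with the same direction in all 4 libraries. Genes of MHC class II, which presents antigen, were lower. Each class gave 1 sum of UMIs per library, and edgeR's quasi-likelihood test with the library as a block compared the 8 sums. Among 4414 genes that the gates had not used, 40 were higher (0.906% of genes tested) and 37 lower (0.838%) at a Benjamini-Hochberg adjusted p under 0.05. The libraries stand for different conditions and are the replicates here. With the library as a block, p-values measure how far the difference between the classes varied from library to library. The count of 77 calls fell to 24 without the WT normal library, 33 without WT tumor-bearing and 37 without LAIR1KO tumor-bearing, and was 270 without LAIR1KO normal.

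Gngt2 stood at 749, 936, 883 and 922 CPM in the gated cells, against 230, 192, 240 and 204 CPM in classical monocytes (here and below in tests, CPM are scaled with TMM factors). The sets did not overlap, and the log2 difference was 2.02 ± 0.25 (SE; edgeR adjusted p = 0.00102, n = 4 libraries). For Fcgr4, which binds IgG2 immune complexes, the gated cells gave 219, 224, 240 and 259 CPM against 22.3, 41.1, 107 and 67.9 in classical monocytes. All 4 libraries had it higher, by 2.11 ± 0.32 log2 units (edgeR adjusted p = 0.00353). Pou2f2 stood at 648, 505, 547 and 481 CPM against 282, 119, 93.3 and 123, a log2 difference of 1.89 ± 0.28 (edgeR adjusted p = 0.00290). S1pr5, the sphingosine 1-phosphate receptor that guides exit of monocytes from bone marrow, had 113 UMIs in the gated cells and 4 in classical monocytes (log2 3.30 ± 0.60, edgeR adjusted p = 0.0106). Ceacam1, an adhesion molecule of the carcinoembryonic antigen family, rose by 1.70 ± 0.33 log2 units (244 ± 27.7 against 84.1 ± 38.6 CPM, SD, n = 4, edgeR adjusted p = 0.0171).

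The other higher genes of the naming rule differed by 1.81 to 2.76 log2 units. Cd36 stood at 403 ± 34.3 against 96.6 ± 45.4 CPM (SD, n = 4), Hes1 at 305 ± 70.7 against 50.7 ± 26.0, Grk3 at 261 ± 33.3 against 50.5 ± 16.6 and Hfe at 131 ± 23.1 against 18.8 ± 11.9. Apoc2 stood at 345 ± 38.9 against 85.2 ± 24.4 CPM. Gfpt1, the first enzyme of hexosamine synthesis, stood at 284 ± 31.6 against 76.6 ± 11.4 CPM, and Cyth3, an exchange factor for ARF proteins, at 175 ± 18.5 against 48.5 ± 9.77. Osgin2 and Pot1b, a protein of telomere ends, completed the 12. Each was higher in 4 of 4 libraries, which the naming rule required.

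Transcripts of MHC class II genes went the other way. They were taken from a list of 10 that also holds the costimulatory genes Cd40, Cd80 and Cd86 and the regulator Ciita. Of its 8 measured genes, 6 were lower (Cd74, H2-Aa, H2-Ab1, H2-DMa, H2-DMb1 and H2-Eb1) and 0 higher, while 0.838% of all genes were lower. The median log2 difference was -1.65 against -0.05 over all genes tested. Among cells of both gates with neither neutrophil nor alveolar transcripts, in 3 libraries, 3 of the 8 were lower (H2-Ab1, H2-DMa and H2-Eb1). There 0 were higher and the median was -1.14. Over all genes in that comparison, 127 of 1816 were called in either direction. Markers of dendritic cells, which are rich in MHC class II, moved with this list. The 7 markers summed to 1.27 UMIs per 10000 in classical monocytes (0.240 to 2.44 between libraries) and to 0.469 in the gated cells (0.0335 to 1.16), with WT tumor-bearing lung highest in both and Xcr1 at 0 in both. Cd209a, the only one measured in the test, differed by -2.43 log2 units (edgeR adjusted p = 0.0859). Their part in the result was not tested. H2-Ab1, a beta chain, stood at 113, 529, 136 and 206 CPM in the gated cells and at 957, 1692, 413 and 737 in classical monocytes. It was lower in each library (log2 -2.05 ± 0.30, edgeR adjusted p = 0.00274), though the WT tumor-bearing gated cells lay above the LAIR1KO normal classical ones. Cd74, the invariant chain, stood at 789, 2248, 901 and 1160 CPM against 3384, 6332, 2013 and 3083. Its WT tumor-bearing value again stood above the others of its class. H2-DMa, which helps to load peptides, stood at 71.5 ± 21.1 against 209 ± 13.3 CPM (SD, n = 4), with no overlap.

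Among the remaining lower genes, the chemokine gene Ccl9 stood at 154 ± 31.7 against 526 ± 162 CPM (SD, n = 4). Tmem176b, a channel-like membrane protein of myeloid cells, stood at 44.3 ± 18.2 against 239 ± 89.4 CPM (log2 -2.41 ± 0.25, edgeR adjusted p = 2.62e-04). Its neighbour Tmem176a fell by 2.28 log2 units. Gas7, a protein of the actin skeleton, stood at 17.9 ± 7.73 against 98.3 ± 20.1 CPM, and Ahnak, a large scaffold protein, at 281 ± 34.4 against 768 ± 116. Stxbp6 fell by 2.71 log2 units.

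Several genes best known from this subset did not pass. Nr4a1 stood at 1587, 1619, 1627 and 1036 CPM against 698, 994, 1186 and 507 (log2 0.84 ± 0.25, edgeR adjusted p = 0.110), higher within each library. Cx3cr1, the fractalkine receptor, stood at 167 ± 28.9 against 110 ± 36.3 CPM (log2 0.67 ± 0.28, adjusted p = 0.262, edgeR). Cells with neither neutrophil nor alveolar transcripts were also set against classical monocytes picked in the same way. LAIR1KO normal lung, with 5 such classical cells, fell under the minimum of 10 and was left out, which left 80 of the 92 gated cells and 67 classical cells in 3 libraries. Nr4a1 passed there (log2 1.26, edgeR adjusted p = 0.0149, n = 3 libraries), as did Tcf7l2, a factor of WNT signalling (3.33, adjusted p = 0.00416), and Bcl6, a repressor (1.83, adjusted p = 0.0184). Cd300ld and Pilra, receptors of paired families, and Cxcr4, the receptor for CXCL12, passed there as well (2.05, 1.88 and 1.25). Pirb, an inhibitory receptor, was lower (-1.20, adjusted p = 0.0419 by edgeR), and S100a8, a neutrophil gene, was higher (2.01, adjusted p = 0.0350 by edgeR). Cx3cr1 did not pass (0.93, edgeR adjusted p = 0.186). With all cells of the same 3 libraries, Nr4a1, Cd300ld and Pilra passed too (edgeR adjusted p = 0.0412, 0.0110 and 0.0282), while Tcf7l2, Bcl6, Cxcr4, Pirb and S100a8 did not (0.0910, 0.0923, 0.050007, 0.642 and 0.101). Of the 24 genes of the naming rule, 23 were measured in the comparison without neutrophil or alveolar transcripts, all 23 had the same direction and 21 passed. These cells are part of those by which the genes were chosen, so this agreement was partly set in advance. H2-Aa and H2-DMb1 did not (edgeR adjusted p = 0.0717 and 0.0522), nor did Cd74 (0.0652), named from its list. Fcgr4 differed more there, by 4.33 log2 units. The neutrophil list summed to 434 UMIs per 10000 in all gated cells and 234 in all classical monocytes. Its 6 measured genes had a median log2 difference of 0.84, against -0.05 over all genes tested. Of the 6, 0 passed, but only 0.906% of all genes were called higher, so this does not show equal levels. In the classical gate 1 cell held 1774 of the 1776 melanoma UMIs.

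**Figure D3:**
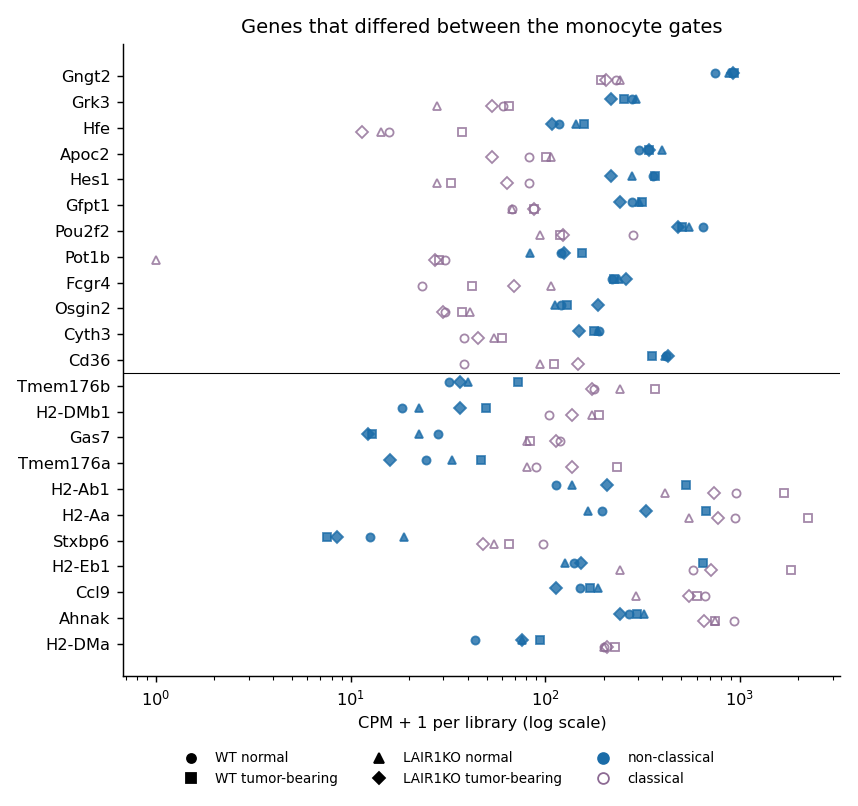
CPM plus 1 per library (horizontal, log scale) of the 12 higher genes and 11 lower genes in non-classical (filled, blue) and classical monocytes (open, purple); symbols mark the 4 libraries. Blue points lie right of purple ones among the upper 12 genes and left of them among the lower 11 within each library. The naming rule required this of each gene.

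The promoter of Fcgr4 (ENSMUSG00000059089, mm10 chromosome 1, 171018920 to 171029761, plus strand) is shown because the gene is an Fc receptor higher in this subset and its promoter holds an ETS-type motif of the kind bound by PU.1. The 250 bases before the start in RefSeq (GRCm38.p6), mm10 chr1:171018676-171018925, plus strand, are given 5′ to 3′, with the match to GAGGAAGT on the opposite strand in capitals.
Fcgr4: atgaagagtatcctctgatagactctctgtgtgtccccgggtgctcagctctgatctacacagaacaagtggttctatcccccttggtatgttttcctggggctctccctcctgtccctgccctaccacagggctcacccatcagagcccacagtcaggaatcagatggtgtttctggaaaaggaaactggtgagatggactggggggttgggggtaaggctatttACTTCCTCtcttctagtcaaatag
The match begins 24 bases before the start. Both strands of promoters from 250 bases before to 50 after the start were searched for this motif alone. It was found in 997 of 27025 RefSeq promoters (3.69%) and in 2 of the 29 genes higher than in classical monocytes that had an entry (Cbfa2t3 and Fcgr4). This describes the letters of the sequence and not a bound site.

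Against C1q-high macrophages, phagocytes of the lung tissue, the gated cells differed in 2373 higher genes (25.1% of genes tested) and 2436 lower genes (25.7%) among 9465, by the same edgeR test. They were higher in adhesion and migration genes and lower in chemokine, scavenger and MHC class II genes. Plac8, a small cysteine-rich protein of blood leukocytes, stood at 1184, 1533, 1808 and 1510 CPM in the gated cells, against 1.19, 7.72, 4.44 and 4.76 in macrophages. The log2 difference was 8.32 ± 0.23 (SE; edgeR adjusted p = 4.37e-11) and 9.18 in the 92 cells with neither. Thbs1, the matrix glycoprotein thrombospondin 1, stood at 3843, 3396, 3577 and 5546 CPM against 170, 152, 173 and 218. It was higher by 4.51 ± 0.09 log2 units, and by 3.72 in the 92. Classical monocytes had Plac8 at 2004 CPM and the gated cells at 1488 in their comparison, a difference that did not pass (log2 -0.39, edgeR adjusted p = 0.514).

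Of 19 measured adhesion and migration genes 14 were higher and 3 lower (median log2 2.43, against -0.10 over all genes tested). Itgb2, the beta chain of LFA-1, stood at 662 ± 93.1 against 122 ± 9.89 CPM (SD, n = 4), Itga4 at 389 ± 57.2 against 65.4 ± 4.24 and Itgb7 at 93.5 ± 25.6 against 4.30 ± 1.48. Ceacam1 stood at 248 ± 27.7 against 10.9 ± 3.23 CPM, and S1pr5 at 53.6 ± 15.5 against 0.400 ± 0.372. Selplg, a ligand of selectins, was higher by 2.22 log2 units. Cx3cr1 was lower than in these macrophages, at 169 ± 27.6 against 380.3 ± 91.1 CPM (log2 -1.12 ± 0.14, edgeR adjusted p = 1.82e-05), as was S1pr1. In the 92 cells with neither, 11 of 18 were higher and the same 3 lower. Over all genes tested in the 92, 1919 of 7746 were called in either direction. That share applies to all counts below of the 92 against macrophages.

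Fc receptors were split. Fcgr4 (239 ± 21.2 against 15.6 ± 6.69 CPM, log2 3.97) and Fcer1g, their shared signalling chain (2504 ± 158 against 1523 ± 84.4, log2 0.72), were higher. Fcgr1 (log2 -2.18), the inhibitory Fcgr2b (-2.18), Fcgr3 (-0.50) and Fcgrt were lower. Of 18 transcription factors listed for monocytes and macrophages, 8 were higher and 6 lower. Nr4a1 stood at 1642, 1622, 1604 and 1083 CPM against 573, 605, 557 and 545, with no overlap (log2 1.36 ± 0.10, edgeR adjusted p = 2.14e-07). Cebpb, a factor that non-classical monocytes need, stood at 7692 ± 742 against 1874 ± 206 CPM. Nr4a3, a relative of Nr4a1, was higher over all gated cells (log2 0.98) and lower in the 92 (log2 -1.05), both past the threshold.

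Chemokine and scavenger genes were mostly lower in the gated cells, while other secreted genes were split. Of 13 measured inflammatory cytokine genes 7 were higher and 4 lower (median log2 0.85). In the 92 cells 3 of 12 were higher and 5 lower, where 1919 of all 7746 genes were called in either direction. Of 16 measured chemokines 11 were lower and 2 higher (median log2 -2.78), and in the 92 cells 12 were lower and 0 higher. Ccl7 stood at 40.1, 87.0, 28.2 and 39.2 CPM against 3118, 2892, 2176 and 2976 in macrophages, and Ccl12 at 6.37 ± 3.52 against 694 ± 85.5. Of 15 clearance and lipid genes 11 were lower and 2 higher. Stab1, a scavenger receptor, stood at 11.0 ± 4.80 against 1084 ± 39.3 CPM, and Apoe, an apolipoprotein of macrophages, at 1602 ± 313 against 12687 ± 1494. Pf4, a chemokine that interstitial macrophages and platelets carry, stood at 20.5 ± 10.0 against 3609 ± 441 CPM, and Retnla, a secreted resistin-like protein, at 9.71 ± 4.25 against 1702 ± 722. Of the 10 genes of the MHC class II list 9 were lower, with Cd40, Cd86 and Ciita among them. Cd80, a costimulatory ligand on that list, was higher (log2 2.34), though not in the 92 cells (0.15, adjusted p = 0.80 by edgeR). Cd74 stood at 1292 ± 663 against 8158 ± 1454 CPM. Of 4 measured dendritic cell markers 2 were lower as well (Siglech and Zbtb46), and their part was not tested.

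Neutrophil transcripts moved with this comparison: all 7 genes of that list were higher. Among the 92 cells with neither, set against macrophages picked in the same way, 3 of the 4 measured were still higher (Csf3r, S100a8 and S100a9) and Mmp9 was lower. Their part in the results was not tested. Of the 24 genes named by the rule, 22 were measured in the 92 cells with neither, all 22 had the same direction and 21 passed. The 92 are among the cells by which the genes were chosen, so this agreement too was partly set in advance. Pglyrp1, a bactericidal protein, went from a log2 difference of 6.64 to 7.75. Gsr, glutathione reductase, went from 4.88 to 4.30 and Msrb1, a methionine sulfoxide reductase, from 4.93 to 3.96. Larger shifts were seen for S100a11 (3.85 to 1.34), Cd300lf (5.07 to 2.91), Sgms2 (5.46 to 3.46) and Slc7a11, the cystine transporter (5.24 to 1.18, adjusted p = 0.134 by edgeR). Slfn4 and Asprv1 had too few counts there. Selenop, C3ar1, Cxcl1, Igfbp4, Vcam1, Ms4a7 and Folr2 completed the lower genes, and each passed among the 92 as well.

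Lair1 (ENSMUSG00000055541; mm10 chromosome 7, 4003402 to 4063204, minus strand) checks the genotype in these cells. Non-classical monocytes of WT mice held 82 Lair1 UMIs in normal lung (150 CPM, 95% exact Poisson interval 119 to 186) and 128 in tumor-bearing lung (161 CPM, 135 to 192). LAIR1KO cells held 0 in normal and 1 in tumor-bearing lung. Against a floor of 3 counts over the library, LAIR1KO cells of normal lung were at least 15.0-fold lower. For tumor-bearing mice the ratio of WT to LAIR1KO was 93.6 (16.5 to 3726). Classical monocytes held 1 and 4 Lair1 UMIs in the WT libraries, with intervals of 0.173 to 38.1 and 4.58 to 43.1 CPM that lay below those of the non-classical gate. Macrophages stood at 131 (119 to 144) and 184 (173 to 196) CPM, overlapping the non-classical gate in both lungs. The 92 cells with neither set of transcripts stood at 130 (56.2 to 257) and 210 (152 to 281) CPM. The cells with neutrophil transcripts stood at 153 and 154 CPM. Intervals cover counting error only.

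**Figure D4:**
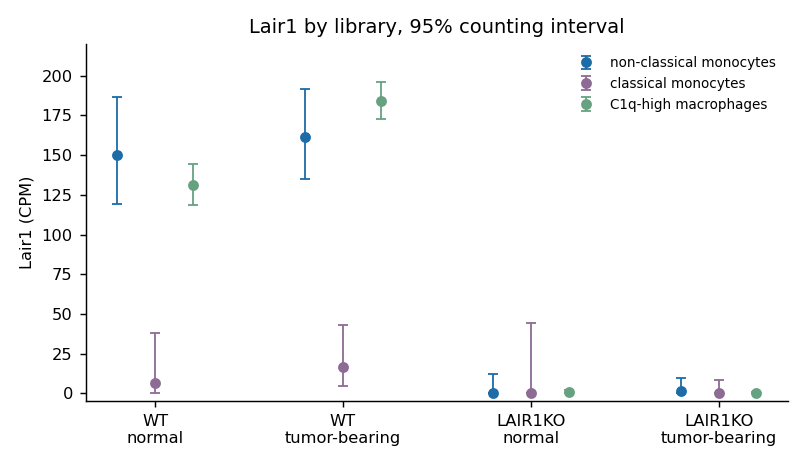
Lair1 in CPM (vertical) by library for the 3 gates; points are library values and bars the 95% exact Poisson interval. Non-classical monocytes and macrophages of WT mice lie at 131 to 184 CPM, classical monocytes at 6.84 and 16.8, and LAIR1KO cells at or near 0.

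Of 22 paired or inhibitory receptor genes, 14 were higher and 3 lower in the gated cells than in macrophages (median log2 0.73). Over all genes tested there, 25.1% were higher and 25.7% lower. Against classical monocytes 0 of 19 measured passed (median 0.50, against -0.05 over all genes). Over all genes 0.906% were higher and 0.838% lower in that comparison, so 0 of 19 is near the share of all genes. In the 3 libraries compared without neutrophil or alveolar transcripts, 2 of 13 were higher than in classical monocytes (Cd300ld and Pilra) and 1 lower (Pirb). Over all genes there, 127 of 1816 were called in either direction. In the 92 cells 10 were higher and 6 lower than in macrophages, where 1919 of all 7746 genes were called in either direction. Pilra, an inhibitory receptor for sialylated proteins, stood at 304 ± 32.2 against 23.6 ± 9.86 CPM, and Cd300a, an inhibitory receptor for phosphatidylserine, at 503 ± 50.4 against 86.8 ± 15.6. Of 7 genes for partners of LAIR1 signalling 5 were higher than in macrophages and 1 lower, among them Ptpn6, which encodes SHP-1 (362 ± 55.5 against 133 ± 15.6 CPM), and the kinase genes Lyn and Csk (log2 1.31 and 0.85). In the 92 cells 3 of the 7 were higher (Ptpn6, Lyn and Csk) and 0 lower. Against classical monocytes 0 of 6 measured passed, again near the share of all genes. Between genotypes Ptpn6 stood at 311 and 308 CPM in WT and 422 and 300 in LAIR1KO normal and tumor-bearing lung. Csk stood at 187 and 160 CPM in WT and 194 and 121 in LAIR1KO lung.

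Pira2, an activating paired immunoglobulin-like receptor, differed between libraries by genotype. It stood at 98.9 (74.3 to 129) and 92.1 (72.2 to 116) CPM in WT normal and tumor-bearing lung and at 298 (239 to 367) and 323 (278 to 372) in LAIR1KO lung. Neither LAIR1KO interval met a WT one. Most of these UMIs, 371 of 403, lay in cells with neutrophil transcripts, and the 92 cells held 20 of the rest. Among these 92, normal lung had 0 Pira2 UMIs in WT, which allows up to 60.1 CPM, and 6 in LAIR1KO cells (115 CPM, 42.3 to 251). Tumor-bearing lung had 8 in WT (38.1 CPM, 16.5 to 75.1) and 6 in LAIR1KO cells (61.8 CPM, 22.7 to 135). The LAIR1KO value was the higher in both lungs, and the intervals overlapped in both. Over hashtag replicates the genotype difference of Pira2 did not pass (log2 1.84 ± 0.89 in normal lung, adjusted p = 0.652, and 1.11 ± 0.69 in tumor-bearing lung, adjusted p = 0.997, both edgeR). Genes of this family are nearly alike, so reads may have been split between them. Its inhibitory relative Pirb stood at 270 to 328 CPM in the 4 libraries.

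The share of non-classical monocytes was compared per animal, over cells given a single hashtag. This left 20, 37, 20 and 42 gated cells in library order. Hashtag doublets were 67.2, 58.3, 42.9 and 48.2% of the gated cells, against 18.3, 17.0, 24.1 and 14.0% of the other barcodes. The gate thus lost unequal parts between libraries, and the part of this loss in the differences was not tested. WT replicates held 0.846, 0.973 and 1.50% in normal lung and 1.35, 1.66 and 1.76% with tumors. LAIR1KO replicates held 0.613, 1.03 and 1.37% in normal lung and 1.55, 1.76 and 1.90% with tumors. In WT mice and between genotypes the groups overlapped, unlike in LAIR1KO mice, where each tumor-bearing animal lay above each normal one. Means were 1.11% ± 0.349, 1.59% ± 0.214, 1.01% ± 0.378 and 1.74% ± 0.180 (SD, n = 3). Tumor-bearing lung held 0.734 percentage points more in LAIR1KO mice (exact permutation test, two-sided, p = 0.1, the smallest that 3 against 3 allows). In WT mice it held 0.486 points more (exact p = 0.2). Without the alveolar-marker cells the difference was 0.411 points in LAIR1KO mice (exact p = 0.2) and 0.193 points in WT mice (exact p = 0.4). Between genotypes the difference was -0.103 points in normal lung (exact p = 0.8) and 0.146 in tumor-bearing lung (exact p = 0.4). None passed a threshold of 0.05, which this design cannot reach.

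Left with only the 92 cells with neither set of transcripts, 63 of them with a single hashtag, the WT difference was 0.677 points (0.195 to 0.677% in normal and 1.01 to 1.33% in tumor-bearing animals, no overlap, exact p = 0.1). The LAIR1KO difference was 0.375 points (exact p = 0.2, the groups overlapping). Over all filtered barcodes, hashtag doublets included, the gate held 1.97% (1.51 to 2.52) and 2.24% (1.82 to 2.73) of WT cells from normal and tumor-bearing lung, and 1.10% (0.794 to 1.48) and 1.85% (1.48 to 2.29) of LAIR1KO cells. The interval of LAIR1KO normal lung lay below those of both WT libraries, and these intervals cover counting error only.

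**Figure D5:**
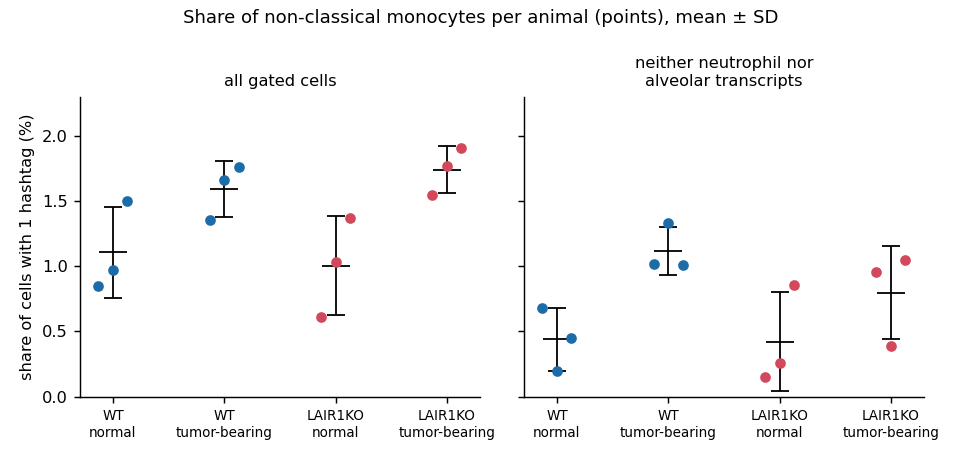
Share of non-classical monocytes among cells with 1 hashtag (vertical, %) per animal (points) with the mean and SD (bars), for all gated cells and for those with neither neutrophil nor alveolar transcripts. LAIR1KO tumor-bearing animals lie above LAIR1KO normal ones on the left, and WT tumor-bearing animals above WT normal ones on the right.

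Genes were compared between conditions over hashtag replicates, since the animal is the replicate. Singly marked gated cells were few. WT animals had 5, 5 and 10 in normal and 8, 15 and 14 in tumor-bearing lung. LAIR1KO animals had 4, 8 and 8 in normal and 13, 9 and 20 in tumor-bearing lung, and the animal with 4 was left out of the fit. Among 1422 genes, tumor-bearing against normal WT lung gave 4 calls (0.281%): Xist, Mrc1, Lpl and Axl, all higher. Tumor-bearing against normal LAIR1KO lung gave 0 (0%), with 46 genes at an unadjusted p under 0.05, and 0 by DESeq2. Genotype in normal lung gave 1 call, Xist (0.0703%), and genotype in tumor-bearing lung 0 (0%), with 51 genes at an unadjusted p under 0.05 and 1 call by DESeq2 (Slpi, log2 2.02). The 46 and the 51 are each a share of the 1422 genes below 0.05, which that threshold passes when nothing differs. The difference between the tumor effects of both genotypes gave 1 call (0.0703%), again Xist. All other calls are by edgeR.

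Mrc1, the mannose receptor of macrophages, stood at 0, 33.0 and 0 CPM in WT normal and 299, 581 and 584 CPM in WT tumor-bearing animals, which did not overlap. With 78 UMIs against 1 the ratio was 59.2 (95% counting interval 10.3 to 2368; edgeR adjusted p = 0.0292). Lpl, lipoprotein lipase, stood at 0, 0 and 17.0 CPM against 938, 1959 and 1617 (238 UMIs against 1, ratio 181, 32.1 to 7166, edgeR adjusted p = 0.0292). Axl, a receptor for the uptake of dying cells, had 54 UMIs against 0 and was at least 13.7-fold higher (floor of 3 counts over the group; edgeR adjusted p = 0.0364). These 3 genes moved with the cells that carried alveolar macrophage markers, of which WT normal lung had 0 and WT tumor-bearing lung 8. Among the 92 cells Mrc1 had 1 and 7 UMIs, Lpl 3 and 14 and Axl 0 and 3 in those libraries. With the alveolar-marker cells left out, the count of calls was 1, and it was also 1 without each WT normal animal in turn and without WT tumor-bearing replicate 2 or 3. In LAIR1KO lung, where both libraries held such cells, Lpl stood at 971 ± 926 CPM (SD, n = 2) in normal and 2143 ± 1811 (SD, n = 3) in tumor-bearing animals (log2 1.06 ± 0.73, edgeR adjusted p = 0.995).

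Nr4a1 stood at 2011 ± 831 CPM in WT and 1311 ± 257 in LAIR1KO animals of tumor-bearing lung (SD, n = 3; log2 -0.58 ± 0.37, edgeR adjusted p = 0.997). Ace stood at 855 ± 39.1 and 807 ± 331 CPM there and Cd300e at 474 ± 156 and 148 ± 13.6 CPM. Both are genes by which the cells were chosen, so these levels are a description. Slpi, a protease inhibitor of neutrophils and lining cells, stood at 306 ± 144 and 1171 ± 544 CPM (log2 2.04 ± 0.39, adjusted p = 0.177 by edgeR). Retnlg, one of the 5 neutrophil genes, stood at 118 ± 113 and 656 ± 489 CPM beside it. With counts this low, 4-fold changes in simulated counts were recovered for 81% of genes in this contrast and 2-fold changes for 25%, so most 2-fold differences would be missed at this depth.

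When each cell was assigned to its highest hashtag where that was at least 2 times the second, more cells entered and more genes passed. WT normal replicate 1 then had 4 gated cells, under the minimum of 5. All contrasts with WT normal lung under this rule therefore rest on its replicates 2 and 3 (16 and 14 cells). HTODemux had called 41 of the 61 gated cells of WT normal lung doublets and 0 negative, so the cells added there were such doublets. Genotype in normal lung then gave 13 calls, among them Lair1 (edgeR adjusted p = 0.0191), and genotype in tumor-bearing lung gave Lair1 alone (edgeR adjusted p = 0.0113), both lower in LAIR1KO. Of the other 12 in normal lung, Sftpc, Sftpb, Sftpa1, Slc34a2 and Cxcl15, genes of the alveolar lining, were lower, and Lpl, Axl, Ear1, Plet1 and Chil3, which alveolar macrophages carry, were higher, beside S100a10 and Xist. The 2192 Sftpc UMIs of WT normal gated cells included 1534 in 1 cell, against 54 in LAIR1KO normal cells. Chil3 had 392 UMIs in LAIR1KO and 66 in WT normal cells, and among cells with neither set of transcripts 23 and 7.

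By size alone, over library sums, several of the largest differences lay mostly in 1 cell. In WT tumor-bearing lung Ccl22 and Ccl17, chemokines of mature dendritic cells, had 100 and 53 UMIs, of which 89 and 52 lay in 1 cell each, against 3 and 0 in LAIR1KO tumor-bearing lung. Tmem212 and Ccdc153, genes of ciliated cells, had 36 and 31 UMIs, all in 1 cell each. In LAIR1KO tumor-bearing lung Hba-a1 had 38 UMIs, 36 of them in 1 cell, Gpnmb 38 with 32 in 1 cell, and Ifit1, an interferon target, 54 with 35 in 1 cell. Against LAIR1KO normal lung, Mt2, a metallothionein, had 127 UMIs against 10, with 58 of the 127 in 1 cell. Inhba, the activin subunit, had 45 UMIs in 12 cells against 4, with 15 of the 45 in 1 cell. Cells with neither neutrophil nor alveolar transcripts held 2 of the 127 and 1 of the 45. Ccr2 was lower than in LAIR1KO normal lung, with 16 UMIs against 36 (27.6 and 121 CPM). These values compare single libraries and have no replicate check.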

How the data were processed

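Lung cells of 4 groups were measured in 1 droplet library each (10x Genomics 3' chemistry of version 3 per the labels). The deposited files hold raw UMI counts per gene and hashtag for called barcodes; the authors used Cell Ranger 4.0.0 and STAR on mm10, and list R 4.0.0 and Seurat 3.2.0, per the submitters' processing notes, with no STAR version. No column was left unmapped.

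Cells were gated as described, with hashtag doublets included. The gate, the comparison gates, the 33 gene lists and the tests were chosen with earlier results of these data known. Hashtags were called with HTODemux (Seurat 5.3.0, positive quantile 0.99) and Scrublet was run in scanpy 1.11.5. UMIs were summed per library and class (at least 10 cells) or per hashtag replicate (at least 5 gated cells, all groups sharing the spread) and tested with edgeR 4.0.16 on R 4.3.3 (TMM, filterByExpr, quasi-likelihood F test, Benjamini-Hochberg over all genes tested, threshold 0.05). Both classes of a class comparison come from the same libraries, so library was a block. Genes named per class comparison were the 12 higher and 12 lower with the smallest p, at least 2-fold and 50 CPM in the higher class, in the same direction in 4 libraries, passing over sex-linked, ribosomal, mitochondrial, immunoglobulin and T cell receptor genes and gene models. Those of condition contrasts were the 6 and 6 with the smallest p, or, under 4 calls, also the 8 and 8 with the largest library ratio and at least 30 UMIs, of which part are given. Genes of the lists could be named throughout. A few genes are not reported here. Doublets were kept, since the gate includes them.

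The tests were checked on simulated counts with 200 changed genes: 78% of 4-fold changes were recovered against classical monocytes (4431 genes), 86% against macrophages (9478), and 49, 81, 60 and 42% for genotype in normal and tumor-bearing lung and tumor in WT and LAIR1KO lung (1422 genes each). Intervals are exact at 95% and cover counting error only. DESeq2 1.42.0, other filters, other hashtag rules and left-out libraries were tried as alternatives.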

Additional observations from a re-analysis of the deposited data

Results flagged for a closer look

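Xist, the RNA that coats the silenced X chromosome, was singled out because its tumor effect differed between the genotypes by the test of that difference itself. The log2 value of the interaction was -8.98 ± 0.81 (SE; edgeR adjusted p = 1.38e-04). Singly marked gated cells held 0 Xist UMIs in 3 of 3 WT normal animals and 249 in WT tumor-bearing ones, at least 63.0-fold more by a floor of 3 counts over the group. LAIR1KO normal animals stood at 1126 ± 187 CPM (SD, n = 2) and tumor-bearing ones at 1282 ± 127 CPM (SD, n = 3). The fitted value depends on the prior count, since 1 group was at 0. Sex and group cannot be told apart in the contrasts with WT normal lung.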

How the results depend on the processing

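Against classical monocytes 77 genes became 310 with no filter on low counts, 151 with no replicate block (the library pairing left out), 164 with at least 4 of the 7 counted genes and 125 without alveolar-marker cells. It was 132 without cells with B, T, NK, endothelial or fibroblast markers and 127 without neutrophil or alveolar transcripts, both over 3 libraries, since LAIR1KO normal lung then had 9 and 5 classical cells, under the minimum of 10. Leaving out 1 library gave 24 to 270 (24 without WT normal, 33 without WT tumor-bearing, 270 without LAIR1KO normal and 37 without LAIR1KO tumor-bearing). Against macrophages 4809 genes became 2138 with a single hashtag, 1821 with at most 2 neutrophil UMIs and 1919 with neither set of transcripts, where fewer cells entered. Left-out libraries gave 4144 to 4510. Genotype in normal lung went from 1 to 13 with the highest hashtag, 3 by DESeq2 (Axl and Lpl beside Xist), 30 with no filter, and 1 to 6 with a replicate left out (6 without LAIR1KO normal replicate 3). Genotype in tumor-bearing lung went from 0 to 1, 1 and 23 under the first 3 of these. Tumor in WT lung went from 4 to 19, 13 and 117, to 15 with only these groups, 11 with at least 3 members per replicate, 1 each with at least 4 counted genes and no alveolar-marker cells, and 1 each with few neutrophil UMIs and neither set, both of these also at a minimum of 3 members. It was 1 to 4 with a replicate left out. Tumor in LAIR1KO lung went from 0 to 12 with no filter. The interaction went from 1 to 9 with the highest hashtag, 24 with no filter, and 1 to 4 with a replicate left out (4 without LAIR1KO normal replicate 3). The cause was not tested where it is not named.

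With a replicate left out the genotype difference in share ran from -0.284 (without LAIR1KO normal replicate 3) to 0.0956 points in normal lung. It reversed there without LAIR1KO normal replicate 1 (0.0937 points), without WT normal replicate 3 (0.0956), over Lyz2 or Csf1r positive cells (0.288) and with few neutrophil UMIs (0.119). In tumor-bearing lung it reversed with at least 4 counted genes (-0.163), without markers of 7 other lists (-0.0998), with few neutrophil UMIs (-0.154), without alveolar-marker cells (-0.0209), with neither set (-0.320) and over all filtered barcodes (-0.384). For tumor in WT lung it was -0.0129 without markers of 7 other lists. No call was at stake, since these tests cannot pass. Of the values of named genes against classical monocytes, 318 kept direction and call and 15 kept direction alone; against macrophages 330 and 2; for tumor in WT lung 18 and 18. The alternatives on neutrophil, alveolar and 5 other lineages' transcripts, and the interaction, were chosen after seeing the data. The rule on 7 other lists left too few cells for gene tests, the fit with neither set was not possible for genotype in normal lung, tumor in LAIR1KO lung and the interaction, and DESeq2 was not run for the interaction. No paired analysis was possible between conditions because each group is 1 library and hashtag numbers do not link animals. A group left with 1 animal was assumed to vary like the others. Depth limits the condition contrasts, with 4 to 20 cells per animal.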
